A study of Mus musculus with 4 samples.

Results

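Scleraxis, mohawk, tenomodulin and 4 non-collagen markers of follicle and ligament cells (Scx, Mkx, Tnmd, Bicc1, Ncam1, Spon1 and Vcan) were followed in sorted dental follicle cells with 1 or both copies of Ptch1 targeted. They were chosen by gene symbol as ligament transcription factors and follicle markers, and all 7 were found among the 23107 genes of the tables. The cells were tdTomato-positive PTHrP+ dental follicle cells, sorted from dissociated mandibular molar follicles of mice at postnatal day 8 after tamoxifen at postnatal day 3. Conditional Ptch1 heterozygotes, labelled Ptch1(+/-) and called cHet, gave 2 libraries, and conditional knockouts, labelled Ptch1(-/-) and called cKO, gave 2. Both groups therefore carried the reporter, received tamoxifen and had at least 1 targeted copy, so that no wild-type group was compared. The Cre driver, the number of animals behind a library and whether animals were pooled are not given in the sources used here.

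The dental follicle is the mesenchymal sac around the unerupted tooth, and its cells give rise to the periodontal ligament, cementum and part of the alveolar bone. In tendon and ligament, the basic helix-loop-helix factor scleraxis (Scx) marks progenitors and dimerises with E proteins on E-box sites. The homeobox factor mohawk (Mkx) sustains the fibroblast programme, and the transmembrane glycoprotein tenomodulin (Tnmd) marks its later stage and lies downstream of scleraxis. Bicc1 encodes an RNA-binding protein with KH and SAM domains. Ncam1 encodes the neural cell adhesion molecule, Spon1 the secreted matrix protein F-spondin, and Vcan the large chondroitin sulphate proteoglycan versican, which binds hyaluronan. Ptch1 is the receptor that restrains hedgehog signalling, so the comparison asks how these markers stand when the second copy is targeted too.

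The markers fell into 2 sets. In scaled counts (counts per gene over a library-wide factor), each knockout library exceeded each heterozygote for Bicc1, Spon1 and Ncam1, whereas Scx, Mkx, Tnmd and Vcan overlapped between the groups. Of the 7 markers, 3 were thus higher without overlap, where 18% of the 14297 tested genes were, and 0 were lower without overlap, where 14.2% were. None of the 7 passed limma's Benjamini-Hochberg threshold of 0.05 over all tested genes, and neither did any other gene (0% called). At an unadjusted limma p under 0.05 there were 2 markers, Bicc1 and Spon1, where 3.03% of all genes stood. Fold changes are given as differences of log2(scaled count + 3), knockout minus heterozygote, and their median was -0.34 over the 7 markers and 0.12 over all tested genes.

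**Figure D1:**
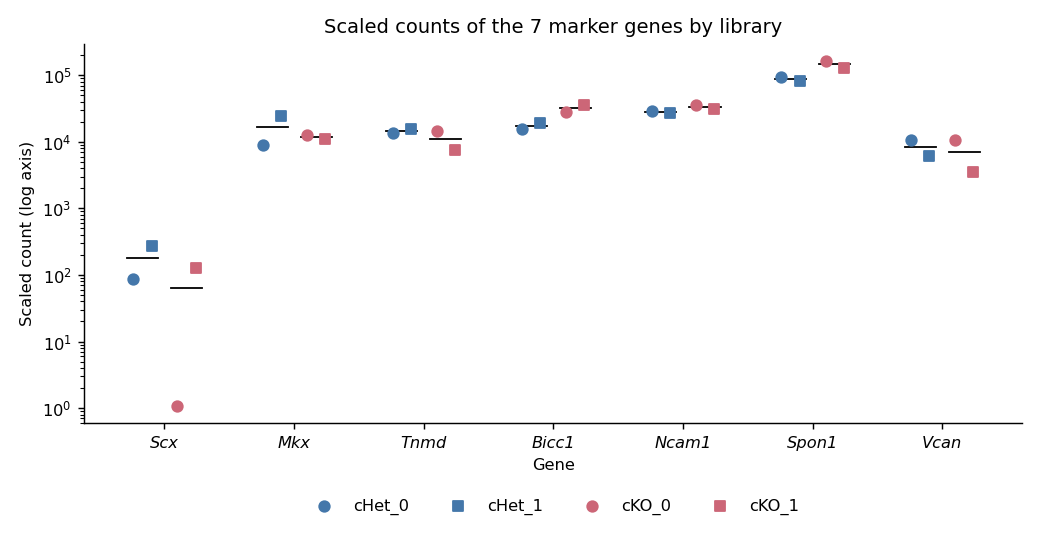
Scaled count (log axis) of each of the 7 marker genes in each library: blue, cHet; red, cKO; circles, columns numbered 0; squares, columns numbered 1; bars, group means (n = 2). Bicc1, Ncam1 and Spon1 lie higher in both cKO libraries, and Scx in cKO_0 lies at 1.08.

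Libraries carry the names of the table columns: cHet_0 and cHet_1, then cKO_0 and cKO_1. They had scaled totals of 69361800 to 71228300, and the size of 1 count step corresponds to about 62304000 to 85660400 reads on genes. The 7 markers together took 0.249%, 0.246%, 0.38% and 0.309% of these totals in that order. Pthlh, which encodes PTHrP and defines the sorted cells, was present in every library at 62.9 to 133 FPKM (a length-normalised abundance). Ptch1 itself had scaled counts of 12867 and 5438 (cHet) and of 22420 and 23341 (cKO). The gene-level value does not show whether an exon was deleted. Library cHet_1 had the fewest genes at an FPKM of at least 1 (9850, against 11355 to 12360) and the lowest correlations with the others (Pearson 0.742 to 0.791 across genes, log2 scale). The other heterozygote, cHet_0, correlated more with cKO_0 (0.893) and cKO_1 (0.858) than with cHet_1 (0.791). Between cKO_0 and cKO_1 the correlation was 0.811. The labels do not tie libraries to separate animals, and the p-values below then rest on a spread that may be technical. With 2 against 2, an exact permutation test of a single gene cannot go below p = 0.333.

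Scx (chromosome 15, 76457452 to 76459458, plus strand, mm10, a protein-coding gene) was scarce. The cHet libraries held 86.6 and 276 scaled counts and the cKO libraries 1.08 and 128, which correspond to 107, 264, 1 and 113 reads. The knockout library cKO_0 thus held a single read, with an exact 95% Poisson interval of 0.0253 to 5.57 reads that covers counting error only. The other knockout library lay between the cHet libraries, so that the groups overlapped and the spread within cKO exceeded that between the groups. The ratio of cKO_1 to cKO_0 was 119 in scaled counts, with an exact 95% counting interval of 20.9 to 4742. Its log2 fold change of -2.77 (SE 2.66, limma adjusted p = 0.914) came mostly from cKO_0 and was -0.27 without that library. Scx lies within the span of Bop1 on the opposite strand, with no shared exon. The sources used here do not say whether reads were counted by strand. Bop1, a ribosome biogenesis gene, stood at 4168, 3238, 3056 and 7189 scaled counts in the order of the libraries, lowest in the library with 1 Scx read, and its part in the Scx values was not tested.

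Mkx, the other ligament transcription factor, exceeded Scx in FPKM in every library (17.6 to 58.6 against 0.0169 to 6.47). The cHet libraries held 9016 and 24640 scaled counts and the cKO libraries 12601 and 11058. Both knockout libraries lay between the cHet libraries, which differed from each other 2.73-fold, against 1.14-fold between the knockouts. The resulting log2 fold change was -0.34 (SE 0.44, 95% interval -1.35 to 0.67, limma adjusted p = 0.929). Its direction rested on cHet_1: without that library it was 0.39, and without cHet_0 it was -1.06. An annotated sense transcript overlaps an exon of Mkx and was not in the tables by its name, so that its reads could fall to Mkx. The promoter of Mkx was left out of the promoter search by selection, not for lack of an entry, and was not examined.

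Tnmd (chromosome X, 133850980 to 133865577, plus strand) had 13525 and 15431 scaled counts in the cHet libraries, against 14756 and 7621 in the cKO libraries. Of the 4 libraries, cKO_1 stood low, and the other knockout library lay between the cHet values. Tnmd had a log2 fold change of -0.45 (SE 0.35, 95% interval -1.24 to 0.35, limma adjusted p = 0.913), which was 0.03 without cKO_1 and -0.92 without cKO_0. Tnmd did not follow Scx between the knockout libraries: cKO_0, with 1 Scx read, held 14756 scaled counts of Tnmd, and cKO_1, with 113 Scx reads, held 7621. The mesenchymal receptor gene Pdgfra, singled out after its values were seen, was also lowest in cKO_1, at 17776 scaled counts against 27387 to 31768 in the other libraries. Markers of dental epithelium summed to 40746 CPM (scaled counts relative to the scaled total of the library) in cKO_1, the highest of the 4 libraries (9366, 21979 and 14439 in cHet_0, cHet_1 and cKO_0). Most of that sum came from the enamel matrix genes Amelx and Ambn (1334660 and 976072 scaled counts in cKO_1). The other markers were mixed: Krt14 was highest in cKO_1 (83386) and Epcam in cHet_0 (4828, against 1002 in cKO_1). The part of these markers in the Tnmd value was not tested. In bulk samples, fewer cells of a type and less RNA per cell cannot be told apart.

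The promoters of Tnmd and Vcan (2 of 7 members, build GRCm38.p6) are shown because scleraxis acts through E-boxes and hedgehog signalling through GLI factors. The RefSeq promoter table held no entry for Scx, Bicc1, Ncam1 and Spon1. Each line gives the 250 bases before the RefSeq start, 5′ to 3′, with E-boxes (CANNTG, palindromic, so that both strands are covered) in capitals.
Tnmd promoter, chrX:133850758-133851007, plus strand: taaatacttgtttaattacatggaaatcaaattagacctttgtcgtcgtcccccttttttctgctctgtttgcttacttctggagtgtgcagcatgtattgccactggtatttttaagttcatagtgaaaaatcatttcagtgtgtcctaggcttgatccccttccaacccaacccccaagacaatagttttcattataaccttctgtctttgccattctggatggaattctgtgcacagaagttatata
Vcan promoter, chr13:89742513-89742762, minus strand: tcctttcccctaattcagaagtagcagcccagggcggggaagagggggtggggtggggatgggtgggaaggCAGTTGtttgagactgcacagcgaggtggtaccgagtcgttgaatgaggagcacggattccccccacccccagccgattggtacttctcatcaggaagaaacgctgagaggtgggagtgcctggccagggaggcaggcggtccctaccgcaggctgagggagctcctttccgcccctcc
The Tnmd window held 0 E-boxes and had a GC content of 38.4%, and the Vcan window held 1 E-box and had a GC content of 62.4%. Of 32851 windows of the same length in the table, 66.2% held at least 1 E-box. The GLI consensus GACCACCCA, searched on both strands, was in neither window and in 0.225% of all windows. Its core CACCC, which lies within the consensus, was found 4 times in the Vcan window and 0 times in that of Tnmd, and 52% of all windows held it. These are matches of letters in 1 window and show no binding.

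Bicc1 (chromosome 10, 70922832 to 71159700, minus strand) separated the groups in both units. Heterozygotes held 15731 and 19243 scaled counts (mean 17487 ± 2483, SD, n = 2), and knockouts 28286 and 35241 (31764 ± 4918). Both knockout libraries lay above both cHet libraries, with 1.22-fold and 1.25-fold between the libraries of a group. FPKM values were 70.8 and 70.6 for the heterozygotes and 128 and 133 for the knockouts, an even narrower spread within each group. Bicc1 had a log2 fold change of 0.86 (SE 0.25, 95% interval 0.29 to 1.43), with an unadjusted limma p of 0.00841 and an adjusted p of 0.913. By unadjusted p Bicc1 ranked 64th of the 14297 genes. Without 1 library in turn the fold change lay between 0.70 and 1.02. An annotated antisense gene, not in the tables by its name, overlaps an exon of Bicc1.

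Spon1 (chromosome 7, 113765998 to 114043370, plus strand) had the highest FPKM of the 7 markers in every library. Heterozygotes held 95333 and 82908 scaled counts (mean 89120 ± 8785, SD, n = 2), and knockouts 162519 and 130212 (146366 ± 22845). The groups did not overlap, and the libraries of a group differed 1.15-fold in cHet and 1.25-fold in cKO. Spon1 had a log2 fold change of 0.71 (SE 0.25, 95% interval 0.12 to 1.30), with an unadjusted limma p of 0.0235 and an adjusted p of 0.913. In FPKM the groups overlapped, with 221 and 85.2 for the heterozygotes and 375 and 153 for the knockouts. Without 1 library in turn the fold change lay between 0.55 (without cKO_0) and 0.87 (without cKO_1).

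Ncam1 (chromosome 9, 49502136 to 49798925, minus strand) showed the same order at a smaller size. Heterozygotes held 28577 and 26662 scaled counts (mean 27619 ± 1354, SD, n = 2), and knockouts 36084 and 30953 (33519 ± 3628). The groups did not overlap, but the gap between the nearest libraries was small. Ncam1 had a log2 fold change of 0.28 (SE 0.23, 95% interval -0.25 to 0.80, limma adjusted p = 0.913), against 0.12 for the median of all genes. With median-of-ratios scaling, which moved the median of all genes to 0.02, the fold change of Ncam1 was 0.17 and the nearest libraries stood at 29845 (cHet_1) and 30343 (cKO_1). The antisense gene Gm11149 shares exon sequence with Ncam1 and had 1009 and 925 scaled counts in the heterozygotes against 1293 and 1657 in the knockouts, higher in both knockouts as Ncam1 was. Its part in the Ncam1 values was not tested.

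Schwann cells and muscle also express Ncam1, and their markers were counted beside it. The 16 Schwann and neural markers summed to 185 and 152 CPM in cHet and to 231 and 529 in cKO, and the level of Ncam1 alone was 412 and 374 against 518 and 438 CPM. Of the 13 tested, 9 had higher and 4 lower values in cKO, and 0 passed. The groups did not overlap for 6 of the 13 upward and 2 downward, beside 18% and 14.2% of all tested genes. S100b, a glial calcium-binding protein gene, stood at 755 and 432 scaled counts in the heterozygotes against 2607 and 2890 in the knockouts. The myelin-related gene Prx stood at 1080 and 58.6 against 2615 and 3675, the myelin gene Mbp at 913 and 167 against 1444 and 5973, and the neurotrophin receptor gene Ngfr at 2486 and 2548 against 4893 and 3698. These genes lay higher in both knockout libraries, as Ncam1 did. The Schwann cell factor Sox10 stood at 73.7 and 2.09 against 1.08 and 160, and overlapped. The part of Schwann cells in the Ncam1 values was not tested. The 12 skeletal muscle markers summed to 2.01 and 0.749 CPM in cHet and to 4.79 and 7.88 in cKO. Of these, 6 to 9 were listed at 0 in each library.

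Vcan (chromosome 13, 89655312 to 89742509, minus strand) had 10693 and 6029 scaled counts in the cHet libraries, against 10775 and 3514 in the cKO libraries. Libraries cHet_0 and cKO_0 stood almost level, and cHet_1 and cKO_1 stood lower in each group. The spread within cKO was 3.07-fold, and the groups overlapped. Vcan had a log2 fold change of -0.38 (SE 0.54, 95% interval -1.62 to 0.85, limma adjusted p = 0.935). It was 0.03 without cHet_0 and 0.42 without cKO_1, and -0.80 and -1.19 without cHet_1 and cKO_0. GENCODE M21 lists 8 protein-coding transcripts of Vcan, and the tables give 1 value for the gene, so that changes between isoforms were not analysed here.

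**Figure D2:**
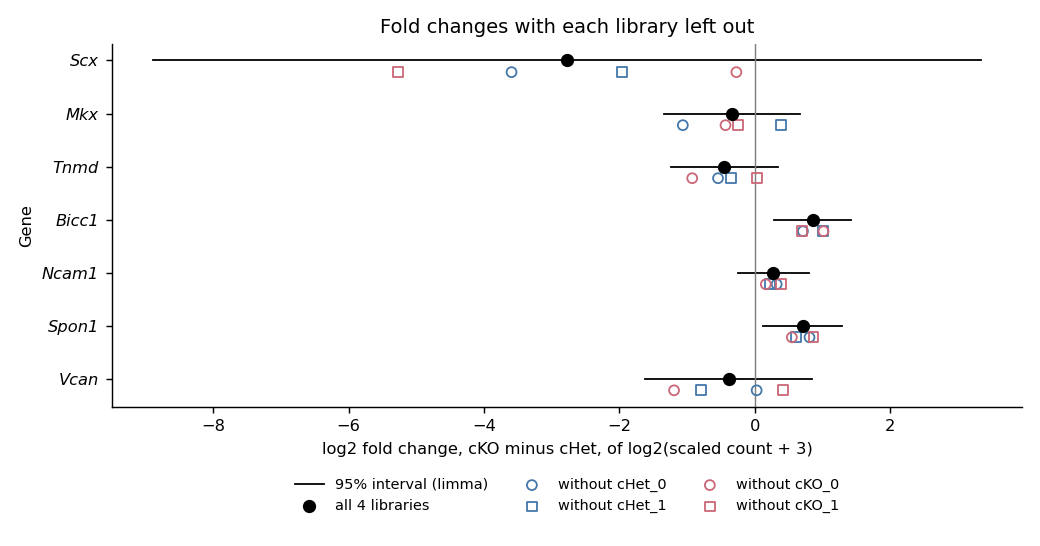
Log2 fold change (cKO minus cHet, scaled counts) of each marker with limma's 95% interval (black) and with each library left out (open symbols). Bicc1, Ncam1 and Spon1 stay above 0 whichever library is left out, and Mkx, Tnmd and Vcan cross 0.

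Compared per length, the order of the markers was similar in all libraries. Spon1 was the highest in each, at 85.2 to 375 FPKM, and ranked between 110th and 585th of all listed genes. Tnmd followed at 166, 72.8 and 175 FPKM in cHet_0, cHet_1 and cKO_0, but in cKO_1 Bicc1 (133 FPKM) exceeded it (43.2 FPKM). Bicc1 and Tnmd were not separated in cHet_1, at 70.6 and 72.8 FPKM. Ncam1 (25.3 to 82.8 FPKM) and Mkx (17.6 to 58.6 FPKM) were neighbours whose ranges overlapped, with Mkx the higher in cHet_1. Vcan (1.94 to 15.8 FPKM) and Scx (0.0169 to 6.47 FPKM) were the lowest, and Scx exceeded Vcan in cHet_1 and cKO_1.

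**Figure D3:**
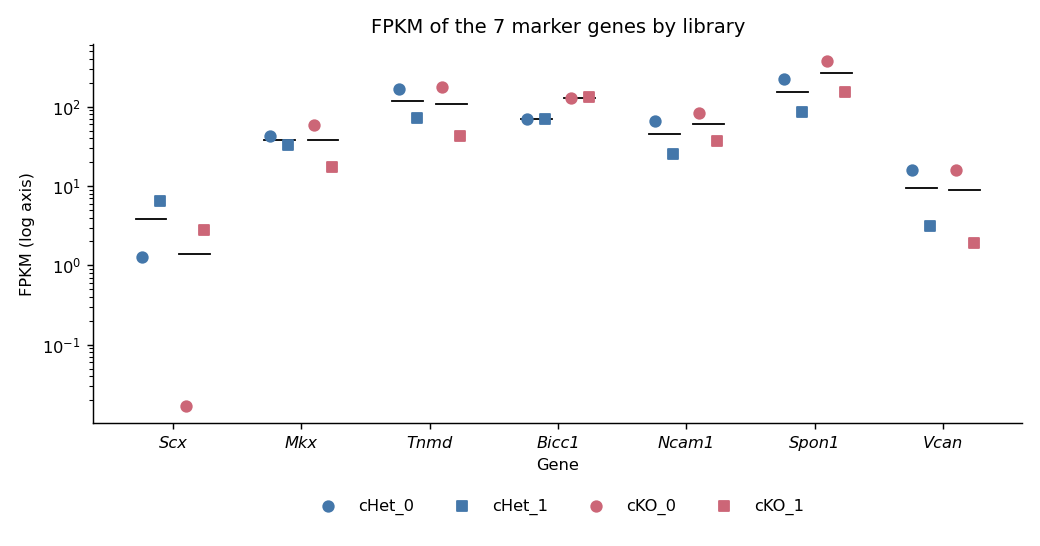
FPKM (log axis) of the 7 marker genes in each library, symbols as in the plot of scaled counts. Bicc1 separates the groups (70.6 to 70.8 against 128 to 133), whereas Spon1, Ncam1, Tnmd, Mkx and Vcan are lower in both libraries numbered 1 (squares) than in both libraries numbered 0.

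The units ranked the libraries differently for most markers. In scaled counts, 3 markers were higher in cKO without overlap, and in FPKM only Bicc1 was, where 11.5% of tested genes were. FPKM per scaled count was nearly the same in cHet_0 and cKO_0 but lower in cHet_1 and cKO_1. Over the 9933 genes that reached 100 scaled counts in every library, the median of this ratio relative to cHet_0 was 0.566 in cHet_1, 0.996 in cKO_0 and 0.609 in cKO_1. It fell with transcript length: in cHet_1 the median was 0.937 for genes whose longest protein-coding transcript is under 1000 bases and 0.416 for those of 8000 bases or more, and in cKO_1 it was 0.918 and 0.467. Among the markers it was 0.282 for Mkx (3650 bases), 0.353 for Vcan (12427 bases), 0.384 for Tnmd (1353 bases), 0.412 for Ncam1 (6564 bases) and 0.443 for Spon1 (6161 bases) in cHet_1. Mkx and Tnmd lay below the medians for their lengths (0.584 from 2000 to under 4000 bases and 0.776 from 1000 to under 2000 bases). Bicc1 (5431 bases) stood at 0.816, and Scx (1035 bases) at 1.58, which is above 99.2% of those genes. The length that the authors took for each gene is not stated, and the cause of this difference was not tested.

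**Figure D4:**
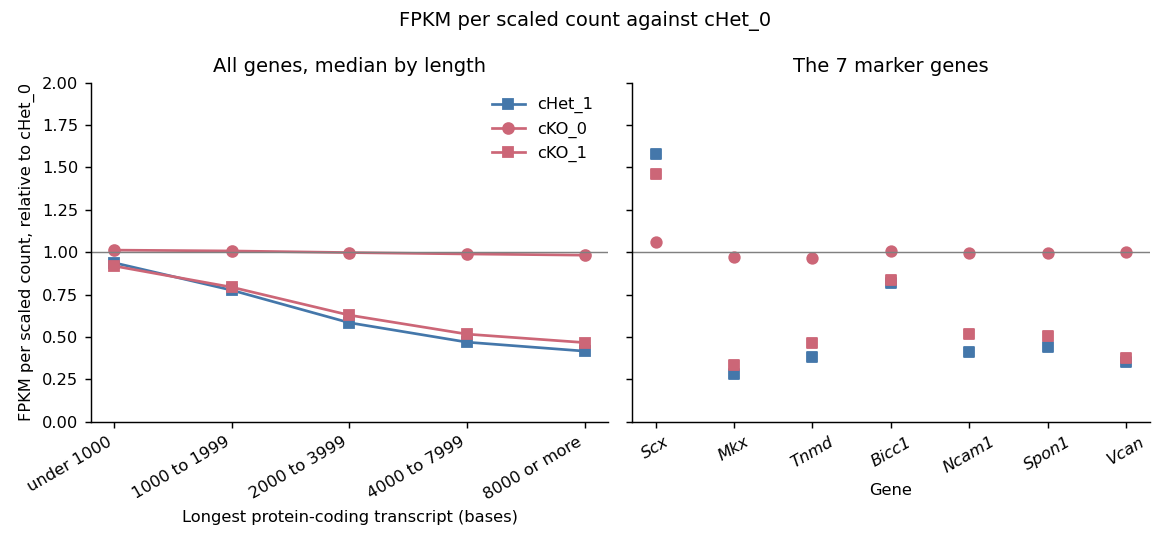
FPKM per scaled count relative to cHet_0, left as the median of all genes by longest protein-coding transcript (bases) and right for the 7 markers. In cHet_1 and cKO_1 (squares) the ratio falls with length, to 0.416 and 0.467 at 8000 bases or more, and cKO_0 stays near 1.

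Since the columns numbered 0 resembled each other in this ratio, as did those numbered 1, the markers were also compared within each number. No label calls this a batch. Bicc1 was 1.80-fold and 1.83-fold higher in cKO within the numbers 0 and 1 in scaled counts, and 1.81-fold and 1.88-fold in FPKM. For Spon1 the ratios were 1.70 and 1.57 in scaled counts and 1.69 and 1.80 in FPKM, and for Ncam1 they were 1.26 and 1.16, and 1.26 and 1.46. These 3 markers were therefore above cHet within both numbers in either unit, where 30% of tested genes were in scaled counts and 31.4% in FPKM. In scaled counts, and for Bicc1 in FPKM, this outcome was already fixed by the groups not overlapping. Scx was below cHet within both numbers, at 0.0124 and 0.464 in scaled counts, where 22.1% of genes were. Mkx (1.40 and 0.449), Tnmd (1.09 and 0.494) and Vcan (1.01 and 0.583) pointed both ways. The values of Tnmd, Mkx and Vcan were thus level or higher in cKO among the columns numbered 0 and lower in cKO among those numbered 1.

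The markers did not vary as 1 block. By Euclidean distance between log2(scaled count + 3) values centred over the 4 libraries, Ncam1 and Spon1 lay nearest to each other (0.446), followed by Bicc1 and Spon1 (0.588) and Bicc1 and Ncam1 (0.750). Tnmd and Vcan lay 0.860 apart. Scx lay at least 4.41 from every other marker. Among 8962 other genes whose scaled counts averaged 1000 or more, those most like Bicc1 were Hagh (0.147) and B4galt7 (0.152), and those most like Spon1 were Nr2c1 (0.0772) and Prim1 (0.1003). Cuedc1 (0.0162) and Vps8 (0.0346) were most like Ncam1, Usp4 (0.0565) and A630072M18Rik (0.0768) most like Mkx, and Nap1l1 (0.0618) and Fam65a (0.0805) most like Tnmd. Vcan was most like Zfp609 (0.102) and Ptn (0.224), the latter encoding the heparin-binding growth factor pleiotrophin. For Scx, with 8963 candidates, Coro2a (0.490) and Blnk (0.955) were nearest. With 4 libraries such distances are a description only.

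Genes that work with the ligament factors were read from the same fit, with values given as cHet_0 and cHet_1 against cKO_0 and cKO_1. Of 38 tendon and ligament regulators and markers, 32 were tested, 15 had higher and 17 lower values in cKO, and 0 passed in either direction (median log2 fold change -0.04). Groups did not overlap for 5 of the 32 upward and 6 downward, shares near the 18% and 14.2% of all tested genes. Egr1, an early growth response factor that acts on tendon genes, was the highest of them in FPKM, and its values were 215122 and 195710 scaled counts against 238656 and 329256. Its relative Egr2 stood at 2040 and 2113 against 2565 and 8051, and Egr2 is a Schwann cell regulator as well. Tgfb1, a ligand of the pathway that induces Scx, stood at 12359 and 10666 against 6639 and 8799 (log2 fold change -0.59, limma adjusted p = 0.913). Nfatc4, a calcineurin-regulated factor, stood at 21577 and 12391 against 27869 and 24484, and Htra3, a secreted protease, at 11824 and 19382 against 10142 and 9352. The tendon matrix gene Thbs4 overlapped between the groups, at 29481 and 50590 against 32407 and 25459.

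Among 28 dental follicle and periodontal ligament markers outside the 7, all were tested, 12 had higher and 16 lower values in cKO, and 0 passed (median -0.18). Groups did not overlap for 6 upward and 9 downward, beside 18% and 14.2% of all tested genes. Bicc1, Spon1 and Ncam1 thus pointed the other way from the matrix genes Tnn (10118 and 24448 against 2676 and 3549 scaled counts), Dcn (54343 and 46719 against 19594 and 23248) and Lum (189110 and 238954 against 109264 and 92464). In FPKM the groups overlapped for Lum, as for Spon1 and Ncam1, but not for Tnn and Dcn. The abundant insulin-like growth factor binding protein genes Igfbp5 and Igfbp3 had log2 fold changes of 0.40 and 0.71 (limma adjusted p = 0.915 and 0.913). The hedgehog inhibitor gene Hhip, also on this list, stood at 62357 and 60651 against 175453 and 160516. All 8 hedgehog readout genes tested had higher scaled counts in cKO without overlap, although Hhip overlapped in FPKM, and 0 passed.

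The partners of the matrix and adhesion markers were mixed. Of 27 versican and hyaluronan partners, 26 were tested, 12 had higher and 14 lower values, and 0 passed (median -0.12). Hapln1, the link protein that locks versican onto hyaluronan, stood at 6163 and 8433 scaled counts against 2880 and 2167 (log2 fold change -1.53, SE 0.39, limma adjusted p = 0.913). Adamts5, a protease that cleaves versican, stood at 10311 and 2790 against 18729 and 13561 (log2 fold change 1.57, SE 0.55, adjusted p = 0.913). Both genes overlapped between the groups in FPKM. Chsy1, a chondroitin synthase, stood at 9594 and 9478 against 7211 and 5955. Fbln1, which encodes the versican-binding protein fibulin-1, stood at 28542 and 14746 against 32556 and 29525.

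Of 16 NCAM partners and relatives, 14 were tested, 9 had higher and 5 lower values, and 0 passed (median 0.50). Groups did not overlap for 1 upward and 1 downward, beside 18% and 14.2% of all tested genes. Several of those tested were near 0 in cHet_1, among them Ncam2 (1.05 scaled counts) and St8sia4 (6.28), and their fold changes enter the median. Fgfr1, a fibroblast growth factor receptor that binds NCAM, stood at 41217 and 39354 scaled counts against 26228 and 26674, lower without overlap in both units (log2 fold change -0.61, SE 0.22, limma adjusted p = 0.913). The adhesion gene Alcam stood at 8383 and 6580 against 13050 and 11161. The receptor gene Gfra1, which partners NCAM in binding GDNF, was near 0 only in cHet_1 (1062 and 13.6 against 1038 and 1987), as was its ligand gene Gdnf (621 and 5.23 against 533 and 529).

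Of 14 F-spondin relatives and receptors, 12 were tested, 8 had higher and 4 lower values, and 0 passed (median 0.19). Mdk, which encodes the growth factor midkine, stood at 17856 and 14399 scaled counts against 23029 and 25295. The receptor gene Vldlr stood at 11118 and 18805 against 9460 and 7623. App, whose product binds F-spondin, had a log2 fold change of 0.21 (limma adjusted p = 0.92). Of 14 Bicc1 partners and targets, 13 were tested, 8 had higher and 5 lower values, and 0 passed (median 0.34). Anks3, a SAM-domain partner of BICC1, stood at 2785 and 3360 against 3759 and 4715. Pkd1 and Pkd2, the polycystin genes, had log2 fold changes of 0.37 and -0.38 (limma adjusted p = 0.913 for both).

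Markers of other cells also differed between libraries, some of them between the genotypes, and their part in the values above was not tested. The 16 endothelial and mural markers summed to 435 and 563 CPM in cHet and to 527 and 728 in cKO, with Pecam1 and Emcn at 0 in at least 1 library. Of the 15 tested, 13 had higher and 2 lower values in cKO, and 0 passed. Groups did not overlap for 5 upward and 1 downward, beside 18% and 14.2% of all tested genes. Pecam1, near 0 in cHet, stood at 0 and 5.23 scaled counts against 300 and 1278. The 11 leukocyte markers summed to 20.4 and 97.0 against 25.1 and 160 CPM. Odontoblast and papilla markers summed to 2638 and 2315 in cHet and to 617 and 805 in cKO, lower in both knockout libraries. Of the 10 tested, groups did not overlap for 0 upward and 5 downward, beside 18% and 14.2% of all tested genes. The 12 osteoblast markers summed to 56840 and 52239 against 34453 and 33871, with Col1a1 taking most of that sum. Without Col1a1 the osteoblast sums were 3883 and 4913 against 3995 and 4170 CPM and overlapped, and of the 10 osteoblast markers tested 5 had higher and 5 lower values.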

How the data were processed

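Total RNA of sorted cells was amplified with the SMART-Seq v4 kit and made into libraries with Nextera XT, per the labels' protocols. The submitters' processing notes name the build mm10 and list DESeq2, HTSeq, Cuffdiff, Cufflinks, Bowtie2 (2.2.1), TopHat2 (2.0.13) and FastQC without saying what each did. The deposited scaled counts, used as a signal, are gene counts over a single factor per library, as read from the table's name and values; how the authors set that factor is not stated. Between 98.9% and 99.2% of the values under 100000 were whole multiples of 1 step, within 0.1 of a read, but the rest were not, so no count model was fitted. The deposited FPKM values are relative to transcript length and library size, as the authors' header and unit name give. A further 16 columns in 4 tables have names that match no label, and they were left out.

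The 14297 genes with at least 10 scaled counts in at least 2 libraries were tested in limma (3.58.1, under R 4.3.3), trend on, on log2(scaled count + 3) and with genotype as its single term. Two-sided p-values were adjusted by Benjamini-Hochberg over all tested genes. The script was tested on simulated data. CPM values were taken relative to the scaled total of each library. Coordinates are from GENCODE M21 (GRCm38, the assembly of mm10), 1-based. The members, the context lists (247 of 248 entries matched by symbol or unique synonym) and the tests were chosen with earlier results of these data known. The rule for named genes took the members, Ptch1, Gli1, Hhip and Pthlh, up to 4 genes of lowest p and 3 of highest FPKM per list, and the 2 genes most alike to each member. Bop1, Gm11149 and Pdgfra were added after values were seen. Ngfr, Sox10, Ncam2 and St8sia4 are also given outside this rule, and not every gene the rule allows is given. The values of 1 Schwann cell marker are not reported here.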

Additional observations from a re-analysis of the deposited data

How the results depend on the processing

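Over 15 alternatives (14 for Scx, which has too low a mean for the filter at 1000), 0 of the 7 markers passed limma's adjusted threshold. Bicc1 (0.70 to 1.02), Spon1 (0.55 to 0.87), Ncam1 (0.17 to 0.44) and Scx (-5.28 to -0.27) kept their direction in each of them. With 1 library left out in turn, Vcan ran from -1.19 to 0.42, Mkx from -1.06 to 0.39, Tnmd from -0.92 to 0.031 and Pthlh from -0.63 to 0.15. The direction turned for Vcan without cHet_0 (0.030) and without cKO_1, for Mkx without cHet_1, for Tnmd without cKO_1, and for Pthlh without cHet_1 and without cKO_1 (0.017). The cause was not tested. In these fits the lone library of a group is assumed to vary like the other group. The count of genes called higher then ran from 7 to 1513 and lower from 5 to 205, against 0 and 0 with all libraries, the largest counts coming without cHet_0. With log2(FPKM + 0.1) there were 1 and 1 genes, and with log2(FPKM + 1) 2 and 3. The median of all genes was 0.12, and 0.02 with median-of-ratios scaling. The titles count libraries from 1 and the columns from 0, so whether equal numbers pair samples is unknown; a replicate block by column number, added after seeing the data, called 0 genes in scaled counts and 0 in FPKM, and 0 members. Deviations of columns with the same number correlated at 0.0486 in scaled counts and 0.163 in FPKM. Tests on counts were not run. Among the 7 markers only Scx rested on few reads, at 107, 264, 1 and 113 in the order of the libraries, and the reason was not tested.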
